A study of Danio rerio with 12 samples.

Results

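The 64 genes described here carry names of families that keep peroxides, superoxide and oxidised thiols in check, though some, such as TXNL4B and GSTZ1, have other tasks. They were chosen by symbol: any gene in the zebrafish gene name table whose symbol begins as those of Keap1, the Nrf2 family, superoxide dismutase, glutathione peroxidase, peroxiredoxin, thioredoxin, glutaredoxin, glutathione S-transferase, glutamate-cysteine ligase, glutathione reductase, sulfiredoxin or NQO1 do. Catalase was added. This matched 72 of the 32520 genes in the files, and 64 of them reached 10 counts in 3 or more of the 12 libraries, as did 16839 genes of the series as a whole. Of the 8 genes that did not, gpx9, gpx2, SOD3 (ENSDARG00000070168) and TXNRD2 (ENSDARG00000094470) had 0 counts in every library. A count of 0 allows up to 3 counts per library. The other 4, gstk2, gstp1.1, TXNIP (ENSDARG00000070000) and SOD3 (ENSDARG00000079183) stayed below the minimum. Upper-case symbols are the gene name table's spelling of zebrafish genes, and the gene ID is given where a symbol names more than 1 gene.

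RNA was sequenced from adult ventricle, taken below the plane of surgery, in 4 groups of 3 libraries. WT sham and WT 7dpa were wild-type fish with a sham operation or 7 days after resection of the ventricle (7 days post amputation, 7dpa), and mvp sham and mvp 7dpa were mvp mutants with the same operations. The mutants were homozygous (mvp-/-) for a CRISPR-made allele that removes the coding region of mvp, the gene of the major vault protein, in every tissue. The line was raised on the AB background, and it stands for a single allele. How hearts were divided among libraries and the age of the fish were not given in the sources used here. The time from sham surgery to collection was not given either, so sham and 7dpa hearts may differ in time after surgery. The deposited values are read counts per gene. They are printed here as CPM (counts per 1000000 counts of the library, with libraries scaled by the trimmed mean of M values, TMM), and levels are compared between libraries of 1 gene, not between genes, as no gene lengths were used.

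Glutathione is a small thiol peptide made by glutamate-cysteine ligase and glutathione synthetase, spent by glutathione peroxidases and glutathione S-transferases, and returned to its reduced form by glutathione reductase with NADPH. Peroxiredoxins and thioredoxins form a parallel route that also removes peroxides, and superoxide dismutases and catalase act on superoxide and hydrogen peroxide directly. Many of these genes are targets of Nrf2 (nfe2l2), a transcription factor held down by Keap1 until oxidants or electrophiles modify Keap1. In the injured zebrafish heart, hydrogen peroxide made at the wound is known as a signal as well as a source of damage.

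Library totals ranged from 21356163 to 26684651 counts, with a median of 22223911. The targeted gene, mvp (ENSDARG00000021242), stood at 179.7 to 193 CPM in WT sham, 136 to 189 in WT 7dpa, 4.67 to 5.405 in mvp sham and 16.6 to 19.4 in mvp 7dpa. WT 7dpa replicate 1 stood apart: its root mean square log2 distance from the other 2 libraries of its group was 0.777, against 0.281 to 0.4596 for the other 11 libraries from theirs. In that library the 6 macrophage marker genes summed to 923 CPM and the 6 erythrocyte marker genes to 854 CPM. Summed macrophage markers ranged from 222 to 244 CPM in WT sham, 923 to 1459 in WT 7dpa, 509 to 545 in mvp sham and 859 to 904 in mvp 7dpa. Erythrocyte markers ranged from 257 to 328 CPM in WT sham, 304 to 854 in WT 7dpa, 478 to 496 in mvp sham and 1050.5 to 1153 in mvp 7dpa, and cardiomyocyte markers (7 genes) from 43964 to 52828 CPM in WT sham, 32111 to 41185 in WT 7dpa, 46527 to 50311 in mvp sham and 37349 to 38140.3 in mvp 7dpa. Marker genes of epicardium and fibroblasts (7 genes), endothelium and endocardium (5 genes) and neutrophils (4 genes) were also present, at most 1711, 414 and 133 CPM summed. The epicardial and fibroblast sum was 1711, 982 and 934 CPM in WT 7dpa replicates 1, 2 and 3, and the neutrophil sum 72.7, 129 and 133. Replicate 1 was thus high in the one sum and low in the other. The neutrophil sum was mostly nccrp1 (42.7 to 126 CPM over all libraries). The markers lyz, npsn and MMP9 reached at most 0.83, 3.1 and 4.93 CPM, so that sum says little of neutrophil number. Of 4 hepatocyte markers fabp10a, apoa2 and FGB had at most 4, 3 and 1 counts in any library, while tfa had 518 to 7862. The antioxidant and glutathione genes are used by all these cell types, and the part of cell makeup in the results below was not tested. The main counts are given with and without WT 7dpa replicate 1, and each of the 64 genes whose call differed without it is named.

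At 7dpa the wild-type ventricle differed from its sham control in 43 of the 64 genes (67.2%), 23 higher and 20 lower, at an adjusted p under 0.05 (quasi-likelihood F-test of edgeR, p-values adjusted over 16604 genes by Benjamini-Hochberg). Among all tested genes 59.4% differed, 31.6% higher and 27.8% lower, so the share of the 64 was close to that of genes in general. In mvp mutants 24 of the 64 (37.5%) differed between 7dpa and sham, 10 higher and 14 lower, beside 26.3% of all genes (12.9% higher, 13.4% lower). Without WT 7dpa replicate 1 these counts were 48 (25 higher, 23 lower) and 35 (16 higher, 19 lower), beside 67.0% and 41.2% of all genes, so that the calls rose in number across all genes as well. With each response fitted on its own groups alone, 35 of 62 tested members were called in wild-type, beside 50.5% of all genes. In mutants 38 of 63 were then called, beside 45.5%. The larger number of member calls in wild-type was thus not seen in those fits. Between the sham groups 32 of the 64 (50%) differed, 20 higher and 12 lower in mutants, beside 49.5% of all genes (25.3% higher, 24.2% lower). Leaving out WT 7dpa replicate 1 made this 43 (24 higher, 19 lower), beside 59.2%. At 7dpa 13 (20.3%) differed, 7 higher and 6 lower in mutants, beside 19.5% (8.94% higher, 10.6% lower). That count was 19 without WT 7dpa replicate 1 (beside 34.9% of all genes), 6 without mvp 7dpa replicate 3 (beside 11.8%) and 5 when the 7dpa groups were fitted alone (beside 8.76%). The size of the response to resection differed by genotype, tested as the interaction term, in 22 of the 64 (34.4%), with 9 more positive and 13 more negative in mutants, beside 35.0% of all genes (15.2% more positive, 19.9% more negative). Without WT 7dpa replicate 1 the interaction was called for 36 of the 64, 16 more positive and 20 more negative, beside 49.9% of all genes (21.9% more positive, 28.0% more negative). These 5 comparisons share their groups, so they are not independent of each other.

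Median log2 fold changes of the 64 genes were close to those of all tested genes in each comparison: 0.091 beside 0.0078 for the wild-type response, -0.04 beside 0.018 for the mutant response, 0.022 beside -0.0042 between the sham groups, -0.019 beside -0.018 between the genotypes at 7dpa and -0.12 beside -0.031 for the interaction. The split between higher and lower depended on the scaling. With library totals in place of TMM, the median of all genes moved from 0.0078 to 0.40 in wild-type and from 0.018 to 0.29 in mutants. The members called then split 38 higher and 7 lower in wild-type and 25 higher and 7 lower in mutants at 7dpa. Of all tested genes 50.3% were then called higher and 12.3% lower in wild-type and 32.9% higher and 4.44% lower in mutants. For mutant against wild-type at 7dpa that scaling gave 5 higher and 9 lower, beside 6.48% and 13.6% of all tested genes. The interaction had 7 more positive and 18 more negative, beside 11.3% and 23.6%. Changes are given below relative to TMM. Among them, 7 modest decreases of the wild-type response (keap1a, CAT, SOD2, GLRX3, TXNL1, gsto2 and gstp1.2) took the opposite sign and lost their call under library totals. No called member changed sign under it in the other 4 comparisons. More calls than these 7 were lost, however. Library totals kept 30 of the 43 wild-type calls and 17 of the 24 mutant calls in the same direction. Members called lower in mutants numbered 7 under library totals, against 14 with TMM, so modest mutant decreases also rest on the scaling.

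Of the 64 genes, 9 were called higher at 7dpa in both genotypes, 10 were called lower in both, and 1, gstt2, was called higher in wild-type and lower in mutants. Another 23 were called in wild-type alone, 4 in mutants alone and 17 in neither. A call in 1 genotype alone does not show that the responses differed: of these 27 genes, 14 had a called interaction and 13 did not, namely CAT, KEAP1, NFE2L2, SOD2, SRXN1, TXN, gsto2, gstp1.2, nfe2l1b, nfe2l2b, nfe2l3, prdx1 (ENSDARG00000058734) and txndc11. Without WT 7dpa replicate 1, 13 genes were called higher in both, 12 lower in both and 3 in opposite directions (gstt2, GCLC and prdx5), and 20 were called in wild-type alone, 7 in mutants alone and 9 in neither. These splits were not made over all tested genes. Of those, 59.4% were called in wild-type and 26.3% in mutants, or 67.0% and 41.2% without that replicate. The splits can therefore not be read as particular to the 64 genes. They also depend on the fit: with each response fitted on its own groups alone, 35 members were called in wild-type and 38 in mutants. In bulk RNA, fewer cells of a type and less RNA per cell cannot be told apart.

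Without WT 7dpa replicate 1 no called gene turned to a call in the opposite direction. The 4 groups share 1 estimate of spread per gene, so leaving out a library changes the p-values of every comparison. WT 7dpa then rests on replicates 2 and 3. Over genes, the chi-square per degree of freedom between their counts was 2.20, against 92.9 and 95.5 between replicate 1 and each of them. The mutant response and the sham difference do not contain WT 7dpa replicate 1, and their log2 fold changes moved by at most 0.012 and 0.019, while 11 more genes passed the test in each. In the mutant response these were nfe2l3, GSTM3 (ENSDARG00000029473), TXNDC16, GSTM3 (ENSDARG00000042533), NFE2L2 and prdx6, called higher, and GCLC, PRDX3, TXN2, KEAP1 and TXNRD3, called lower. Between the sham groups they were TXNDC5, keap1a, TXN and GSTM3 (ENSDARG00000042533), higher in mutants, and GLRX, gstk1, gpx4a, TXNDC9, KEAP1, gstk4 and glrx2, lower. In the wild-type response GSR, txnl4a and SOD1 were then called higher and GSTZ1, gstt1a, prdx5 and gstk4 lower, and SRXN1 and nfe2l2b lost their calls. Between the genotypes at 7dpa GSTM3 (ENSDARG00000088116) and gsta.1 were then called higher and GSTM3 (ENSDARG00000029473), NFE2L2, gpx3, prdx1 (ENSDARG00000058734) and GPX4 lower in mutants, and TXNL4B lost its call. The interaction was then called more positive for GSTZ1, gsto2, gstt1a, GSTM3 (ENSDARG00000042533), gstr, SOD2, gstp1.2 and CAT and more negative for nfe2l3, TXN, NFE2L2, SOD1, prdx1 (ENSDARG00000058734), nfe2l1b and TXNRD3, and gsta.2 lost its call.

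**Figure D1:**
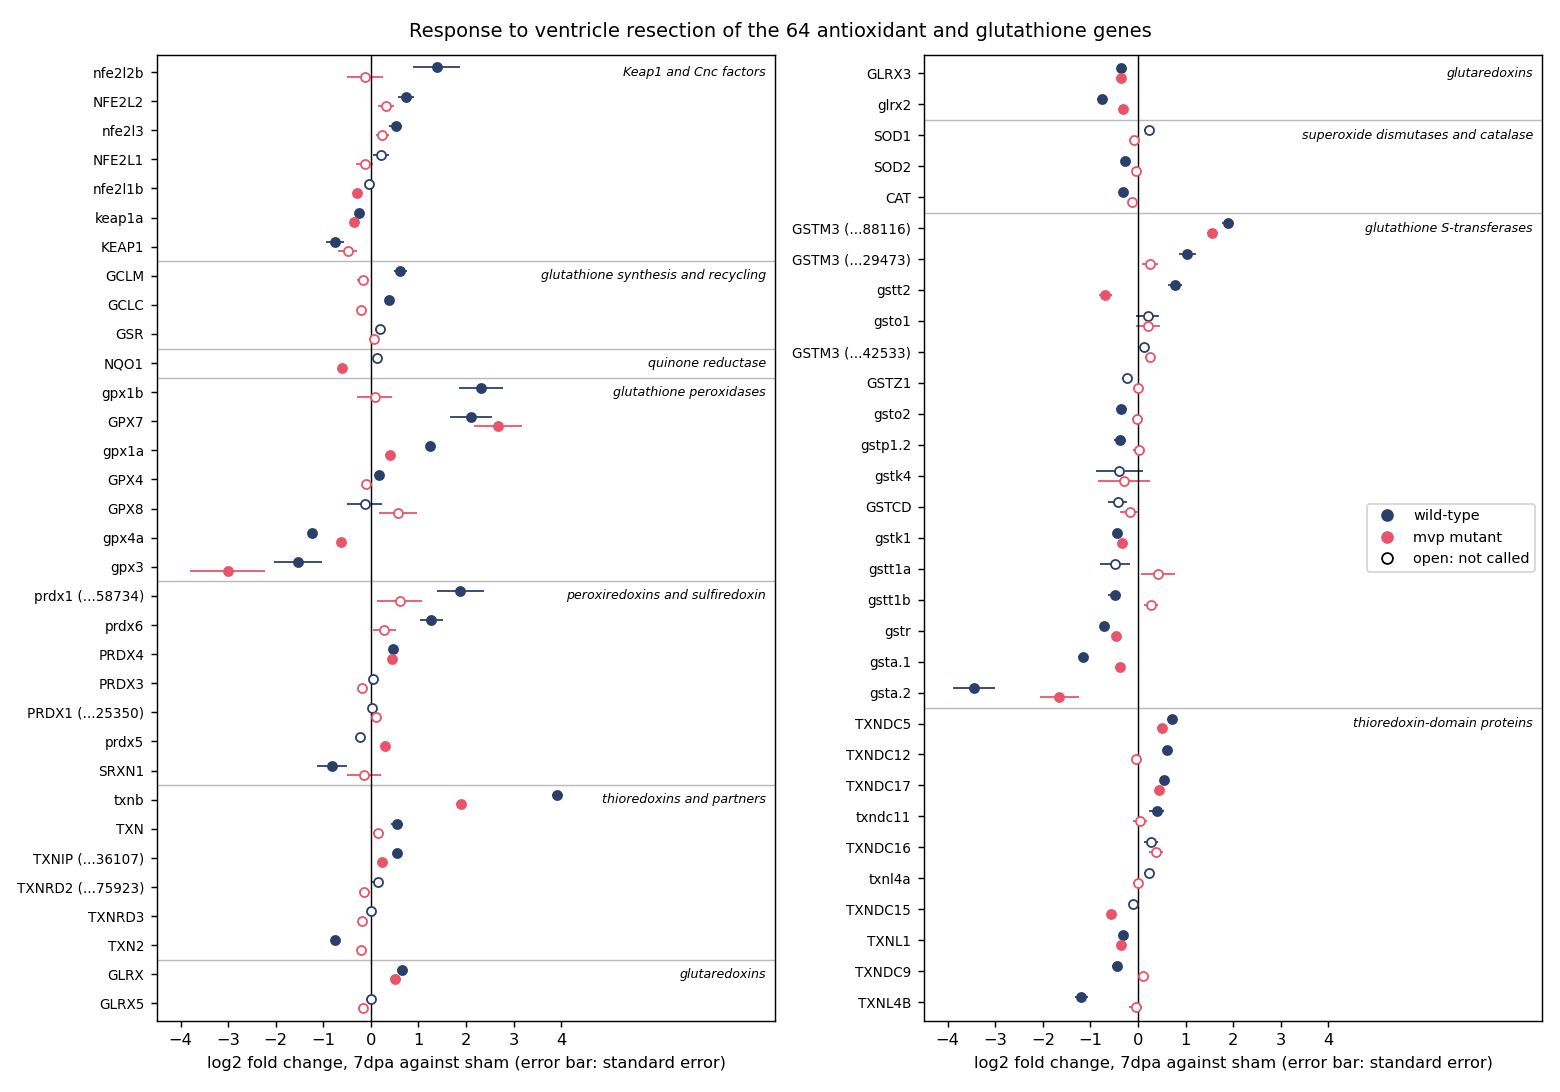
Log2 fold change at 7dpa against sham for each of the 64 genes, in wild-type (dark blue) and mvp mutants (red), grouped by role, with bars of 1 SE and filled points for adjusted p under 0.05. The wild-type points spread from -3.45 (gsta.2) to 3.92 (txnb) and the mutant points from -3.01 (gpx3) to 2.67 (GPX7). GPX7 was kept among the 64 through its 7dpa libraries alone. The 7 wild-type decreases of keap1a, CAT, SOD2, GLRX3, TXNL1, gsto2 and gstp1.2 change sign when libraries are scaled by their totals.

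Thioredoxin b, txnb (ENSDARG00000044125), a small dithiol protein that reduces other proteins' disulphides, had the highest wild-type fold change of the 64 genes. Its levels were 11.9, 11.4 and 10.7 CPM in WT sham and 137, 189.8 and 188 in WT 7dpa. In mutants txnb had 22.3, 23.6 and 24.6 CPM after sham surgery and 89.7, 86.8 and 86.4 at 7dpa. The 4 groups did not overlap: WT sham was lowest, then mvp sham, mvp 7dpa and WT 7dpa. It rose 15.2-fold in wild-type (log2 fold change 3.92 ± 0.12 SE, adjusted p = 5.81e-11, where ± is the standard error) and 3.73-fold in mutants (1.898 ± 0.11 SE, adjusted p = 1.66e-07). Mutant sham hearts held 2.08-fold more than wild-type sham hearts (1.05, adjusted p = 7.76e-06). Mutant 7dpa hearts held 1.96-fold less than wild-type 7dpa hearts (-0.97, adjusted p = 4.87e-05), and the interaction was -2.02 ± 0.16 SE (adjusted p = 7.68e-07). Without WT 7dpa replicate 1 the interaction was -2.18 (adjusted p = 3.19e-16).

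The other thioredoxins had smaller log2 fold changes. TXN rose by 0.55 (adjusted p = 0.00148) in wild-type, and mutants gave 0.16 (adjusted p = 0.36). Its interaction of -0.39 (adjusted p = 0.0883) was -0.34 (adjusted p = 0.0349) without WT 7dpa replicate 1. TXN2 (ENSDARG00000034777), the mitochondrial thioredoxin, had 32.3, 31.6 and 32.4 CPM in WT sham and 20.01, 17.5 and 19.7 in WT 7dpa. In mutants TXN2 had 25.2, 26.1 and 30.3 CPM after sham surgery and 23.1, 22.1 and 25.4 at 7dpa. It was lower at 7dpa in wild-type without overlap (-0.75 ± 0.089 SE, adjusted p = 1.23e-05). In the mutant response it had -0.21 (adjusted p = 0.1), or -0.22 (adjusted p = 0.0263) without WT 7dpa replicate 1, with an interaction of 0.54 (adjusted p = 0.00554). TXNIP (ENSDARG00000036107), an arrestin-like protein that binds thioredoxin and restrains glucose uptake, had 51.9, 57.3 and 56.8 CPM in WT sham and 75.98, 81.4 and 84.6 in WT 7dpa. In mutants TXNIP had 89.4, 86.3 and 86.9 CPM after sham surgery and 104, 97.4 and 109 at 7dpa. The groups stepped up without overlap from WT sham through WT 7dpa and mvp sham to mvp 7dpa. Its log2 fold change was 0.54 (adjusted p = 1.92e-05) in wild-type, 0.24 (adjusted p = 0.0186) in mutants. It was 0.66 (adjusted p = 4.52e-06) for mutant against wild-type sham and 0.36 (adjusted p = 0.00279) at 7dpa, with an interaction of -0.30 (adjusted p = 0.027). The thioredoxin reductases TXNRD3 and TXNRD2 (ENSDARG00000075923), selenoproteins that recharge thioredoxin with NADPH, were not called in either response with all libraries. TXNRD3 was called lower in mutants without WT 7dpa replicate 1 (-0.20, adjusted p = 0.00272). It was called higher in mutant sham hearts (log2 fold change 0.17).

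Glutathione peroxidases, which reduce peroxides at the cost of glutathione, split into members that rose and members that fell: 4 of 7 were higher and 2 lower in wild-type, and 2 were higher and 2 lower in mutants. Among all tested genes 31.6% were higher and 27.8% lower in wild-type, and 12.9% and 13.4% in mutants. GPX7, counted as higher in both genotypes, was kept through its 7dpa libraries alone. The cytosolic selenoenzyme gpx1a (ENSDARG00000018146) had 50.2, 57.7 and 45.3 CPM in WT sham and 109, 127 and 128 in WT 7dpa. In mutants gpx1a had 95.95, 103 and 106 CPM after sham surgery and 131, 128 and 142 at 7dpa. WT sham lay below all other groups, mvp sham lay between it and both 7dpa groups, and the 7dpa groups overlapped. Its log2 fold change was 1.25 ± 0.10 SE (adjusted p = 2.23e-07) in wild-type and 0.39 ± 0.094 SE (adjusted p = 0.00775) in mutants. It was 1.99-fold higher in mutant than in wild-type sham hearts (0.99, adjusted p = 2.23e-06). At 7dpa the genotypes differed by 0.14 (adjusted p = 0.32), and the interaction was -0.86 ± 0.13 SE (adjusted p = 3.31e-04).

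Its paralogue gpx1b (ENSDARG00000006207) had few reads, with counts of 3, 13 and 4 in WT sham, 26, 43 and 71 in WT 7dpa, 23, 41 and 49 in mvp sham and 52, 41 and 52 in mvp 7dpa. In scaled values these were 0.161, 0.571 and 0.206 CPM in WT sham, 0.908, 1.72 and 2.26 in WT 7dpa, 1.18, 2.07 and 2.27 in mvp sham and 2.02, 1.69 and 2.13 in mvp 7dpa, so that WT sham alone was low and the other 3 groups overlapped. The log2 fold change was 2.31 (adjusted p = 8.08e-04) in wild-type, 0.076 (adjusted p = 0.905) in mutants and 2.49 (adjusted p = 6.63e-04) between the sham groups, with an interaction of -2.24 (adjusted p = 0.0113).

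The phospholipid hydroperoxidase gpx4a (ENSDARG00000068478), of the enzyme type that guards membranes against lipid peroxidation, moved the other way, with 104, 111 and 92.5 CPM in WT sham and 40.5, 44.7 and 45.5 in WT 7dpa. In mutants gpx4a had 84.1, 93.9 and 91.4 CPM after sham surgery and 55.4, 62.8 and 56.02 at 7dpa. The 4 groups fell into 2 levels, with both sham groups above both 7dpa groups, and WT 7dpa lay below mvp 7dpa without overlap. It fell 2.36-fold in wild-type (-1.24 ± 0.085 SE, adjusted p = 8.46e-08) and 1.55-fold in mutants (-0.63 ± 0.084 SE, adjusted p = 1.60e-04). It was higher in mutants at 7dpa (0.42, adjusted p = 0.00453), with an interaction of 0.61 ± 0.12 SE (adjusted p = 0.00177). Its relative GPX4 was called higher at 7dpa in wild-type (0.17), with -0.094 in mutants and an interaction of -0.27 (adjusted p = 0.026).

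Among the secreted and endoplasmic reticulum members, counts were low. GPX7 (ENSDARG00000091511), an endoplasmic reticulum peroxidase, had counts of 2, 6 and 5 in WT sham, 27, 24 and 28 in WT 7dpa, 4, 2 and 1 in mvp sham and 28, 11 and 18 in mvp 7dpa, and both 7dpa groups lay above both sham groups. The fitted values were 2.101 (adjusted p = 0.00113) in wild-type and 2.67 (adjusted p = 0.00192) in mutants, both fitted on sham groups of 1 to 6 counts per library. GPX7 reached 10 counts in 6 libraries, all at 7dpa, so its rise is not independent of the filter. The secreted gpx3 (ENSDARG00000043342) had counts of 12, 8 and 23 in WT sham, 5, 5 and 11 in WT 7dpa, 6, 10 and 6 in mvp sham and 2, 1 and 0 in mvp 7dpa. It was lower at 7dpa in both genotypes (-1.53, adjusted p = 0.0201 in wild-type and -3.01, adjusted p = 0.0136 in mutants). The 4 libraries at 10 or more counts, through which gpx3 was kept, did not include mvp 7dpa. The 7dpa difference of -2.46 (adjusted p = 0.0503) was -2.67 (adjusted p = 0.0178) without WT 7dpa replicate 1. The 3 counts in mvp 7dpa against 22 in mvp sham gave a ratio of 0.111, with an exact 95% counting interval of 0.0214 to 0.371 that covers counting error only. GPX8 was not called in any comparison.

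**Figure D2:**
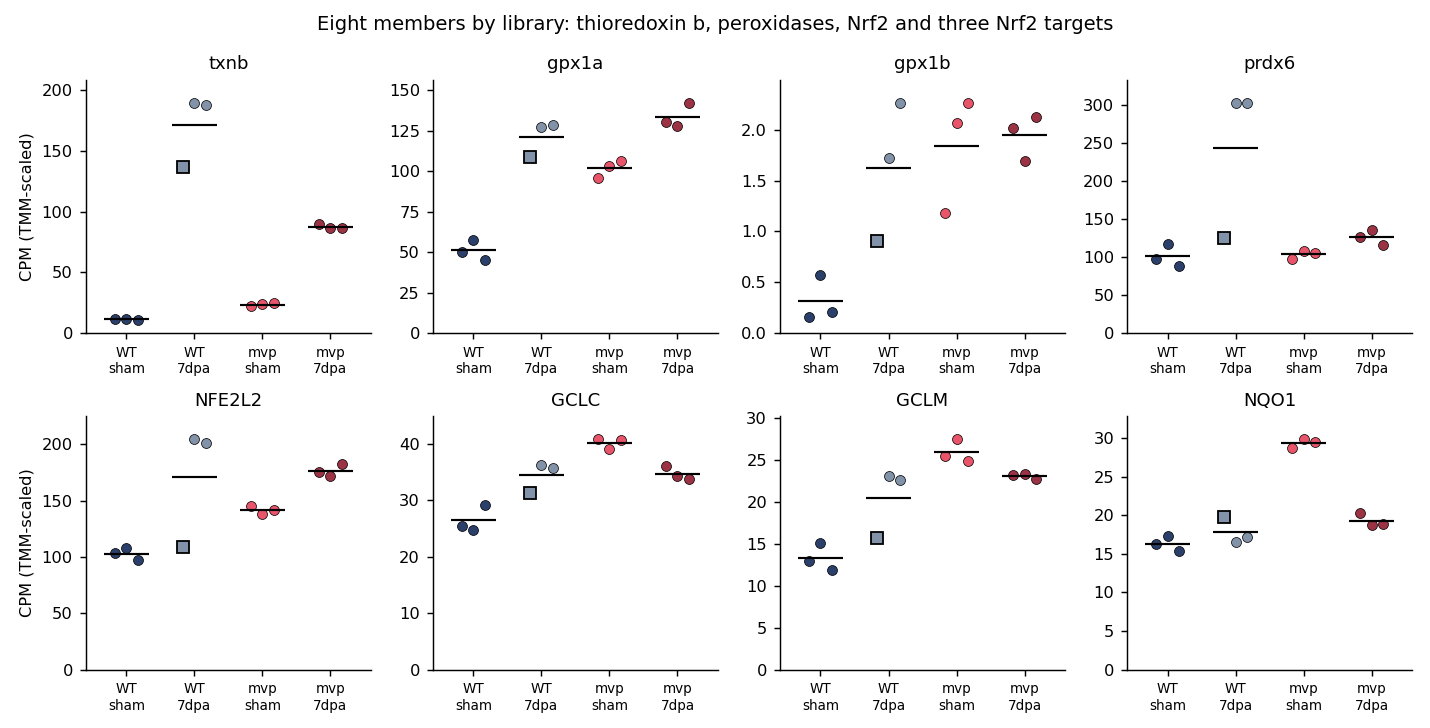
CPM in each library (points, replicates 1 to 3 from left to right) and group mean (line) for txnb, gpx1a, gpx1b, prdx6, NFE2L2, GCLC, GCLM and NQO1, on linear axes that start at 0, with WT 7dpa replicate 1 as a square. NQO1 and GCLM were highest in mvp sham, txnb and prdx6 were highest in WT 7dpa replicates 2 and 3, and the square lay near WT sham for prdx6 and NFE2L2.

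Both subunits of the enzyme that starts glutathione synthesis were higher in mutant than in wild-type hearts after sham surgery. GCLC (ENSDARG00000013095), the catalytic subunit of glutamate-cysteine ligase, had 25.5, 24.7 and 29.2 CPM in WT sham and 31.3, 36.2 and 35.7 in WT 7dpa. In mutants GCLC had 40.7, 39.1 and 40.7 CPM after sham surgery and 36.01, 34.3 and 33.7 at 7dpa. Every mvp sham library lay above every library of the other groups, and every WT sham library lay below them. GCLM (ENSDARG00000018953), the modifier subunit of the same enzyme, had 12.9, 15.1 and 11.9 CPM in WT sham, 15.7, 23.1 and 22.7 in WT 7dpa, 25.5, 27.5 and 24.9 in mvp sham and 23.3, 23.3 and 22.8 in mvp 7dpa, and WT sham again lay below all other libraries. Between the sham groups the log2 fold changes were 0.60 ± 0.082 SE (adjusted p = 4.96e-05) for GCLC and 0.96 ± 0.14 SE (adjusted p = 6.55e-05) for GCLM. Both rose in wild-type hearts at 7dpa (0.38, adjusted p = 0.00138 and 0.62, adjusted p = 0.00143), and mutants gave -0.21 (adjusted p = 0.0708) and -0.17 (adjusted p = 0.384). The mutant decrease of GCLC was called without WT 7dpa replicate 1 (-0.22, adjusted p = 0.00912). The interactions were -0.59 (adjusted p = 0.00169) for GCLC and -0.79 (adjusted p = 0.00597) for GCLM. At 7dpa the genotypes differed by 0.013 and 0.17, neither called.

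NQO1 (ENSDARG00000010250), a quinone reductase and much-used reporter of Nrf2 activity, had 16.3, 17.3 and 15.3 CPM in WT sham and 19.8, 16.6 and 17.2 in WT 7dpa. In mutants NQO1 had 28.7, 29.8 and 29.5 CPM after sham surgery and 20.2, 18.8 and 18.8 at 7dpa. The mvp sham libraries lay above all others, WT sham overlapped with WT 7dpa, and WT 7dpa with mvp 7dpa. It was 1.795-fold higher in mutant than in wild-type sham hearts (0.84 ± 0.085 SE, adjusted p = 3.56e-06). It fell at 7dpa in mutants (-0.60 ± 0.084 SE, adjusted p = 2.08e-04) and had 0.13 (adjusted p = 0.213) in wild-type. The interaction was -0.73 (adjusted p = 4.99e-04). GSR (ENSDARG00000019236), glutathione reductase, went the other way between genotypes, with 11.9, 12.7 and 11.2 CPM in WT sham and 11.8, 14.4 and 14.8 in WT 7dpa. In mutants GSR had 9.18, 9.04 and 10.5 CPM after sham surgery and 10.5, 9.82 and 9.81 at 7dpa. It was lower in mutant sham (-0.32, adjusted p = 0.029) and mutant 7dpa hearts (-0.45, adjusted p = 0.0113), without overlap in either. The wild-type response was 0.20 (adjusted p = 0.131) with all libraries and 0.30 (adjusted p = 0.00734) without WT 7dpa replicate 1. The mutant response was 0.067 (adjusted p = 0.696) and the interaction -0.13 (adjusted p = 0.547).

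Of the 7 Keap1 and Cnc factors, 3 were called higher and 2 lower in wild-type at 7dpa, and 4 were called higher in mutant sham hearts. Among all tested genes 31.6% were called higher and 27.8% lower in wild-type, and 25.3% higher in mutant sham hearts. NFE2L2 (ENSDARG00000042824), Nrf2 itself, had 103, 108 and 97.01 CPM in WT sham and 109, 204 and 201 in WT 7dpa. In mutants NFE2L2 had 145, 138 and 141 CPM after sham surgery and 175, 171 and 182 at 7dpa. WT 7dpa replicates 2 and 3 were the highest libraries of the series, whereas WT 7dpa replicate 1 lay just above WT sham and below every mutant library. The wild-type response was 0.74 ± 0.17 SE (adjusted p = 0.00248) with all libraries and 0.99 (adjusted p = 5.43e-14) without that replicate. Between genotypes at 7dpa the value was 0.041 (adjusted p = 0.896), and without that replicate it took the opposite sign and was called (-0.22, adjusted p = 0.00254). The interaction likewise went from -0.42 (adjusted p = 0.198) to -0.68 (adjusted p = 5.36e-08), and the mutant response from 0.32 (adjusted p = 0.198) to 0.31 (adjusted p = 1.97e-05). Mutant sham hearts held 1.38-fold more than wild-type sham hearts (0.46, adjusted p = 0.0399), with no overlap.

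The second copy, nfe2l2b (ENSDARG00000089697), had few reads, with counts of 2, 3 and 2 in WT sham, 11, 9 and 6 in WT 7dpa, 8, 7 and 11 in mvp sham and 12, 6 and 11 in mvp 7dpa. The 4 libraries at 10 or more counts, through which it was kept, did not include WT sham. Summed over libraries and scaled to their size, the 26 counts of WT 7dpa were 2.65 times the 7 counts of WT sham (exact 95% counting interval 1.12 to 7.24). The 26 counts of mvp sham were 3.71 times them (1.57 to 10.1). Both were called by edgeR (1.38, adjusted p = 0.0276 and 1.84, adjusted p = 0.00678), and the first lost its call without WT 7dpa replicate 1 (1.19, adjusted p = 0.103). The related factor nfe2l3 rose by 0.52 (adjusted p = 0.00516) in wild-type and was higher in mutant sham hearts (0.47), with an interaction of -0.28 (adjusted p = 0.275), or -0.45 (adjusted p = 0.00485) without WT 7dpa replicate 1. NFE2L1 (ENSDARG00000030616), which in mammals drives proteasome genes, had 5.26, 5.27 and 4.33 CPM in WT sham and 5.55, 5.72 and 6.02 in WT 7dpa. In mutants NFE2L1 had 5.08, 3.89 and 3.099 CPM after sham surgery and 4.07, 3.51 and 3.39 at 7dpa. It was lower in mvp 7dpa than in WT 7dpa without overlap (-0.65 ± 0.17 SE, adjusted p = 0.0162). Its wild-type and mutant responses were 0.22 and -0.13, neither called.

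Of the Keap1 genes, which code for the adaptor that hands Nrf2 to a ubiquitin ligase, KEAP1 was called lower at 7dpa in wild-type (and in mutants too without WT 7dpa replicate 1), and keap1a in both genotypes, its wild-type decrease taking the opposite sign under library totals. KEAP1 (ENSDARG00000074634) had 24.3, 20.95 and 22.96 CPM in WT sham and 8.73, 16.2 and 15.5 in WT 7dpa. In mutants KEAP1 had 18.9, 19.3 and 19.8 CPM after sham surgery and 12.6, 16.8 and 11.9 at 7dpa. Both 7dpa groups lay below both sham groups, and WT 7dpa replicate 1 was the lowest library. Its log2 fold change was -0.76 ± 0.19 SE (adjusted p = 0.00396) in wild-type and -0.49 (adjusted p = 0.0776) in mutants, with an interaction of 0.27 (adjusted p = 0.474), and without that replicate the wild-type value was -0.51 (adjusted p = 1.80e-04) and the mutant value -0.49 (adjusted p = 2.51e-04). The copy keap1a (ENSDARG00000016132) had 14.8, 13.4 and 15.1 CPM in WT sham and 12.9, 11.8 and 11.9 in WT 7dpa. In mutants keap1a had 16.1, 16.6 and 17.4 CPM after sham surgery and 12.6, 13.5 and 12.96 at 7dpa. It had a log2 fold change of -0.36 (adjusted p = 0.00654) in mutants and -0.24 (adjusted p = 0.0226) in wild-type, the latter turning to 0.15 under library totals.

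Among peroxiredoxins, thiol enzymes that reduce peroxides, prdx6 (ENSDARG00000043511), which also acts on phospholipids, had 98.1, 117 and 88.4 CPM in WT sham and 126, 303 and 304 in WT 7dpa. In mutants prdx6 had 97.2, 108 and 106 CPM after sham surgery and 127, 135 and 116 at 7dpa. WT 7dpa replicates 2 and 3 stood far above the other 10 libraries, and WT 7dpa replicate 1 lay among the mvp 7dpa libraries. The wild-type response was 1.27 ± 0.24 SE (adjusted p = 6.15e-04), and 1.59 (adjusted p = 4.96e-15) without that replicate. The mutant response was 0.28 (adjusted p = 0.431) with all libraries and 0.28 (adjusted p = 0.004) without that replicate. The interaction was -0.99 (adjusted p = 0.039), or -1.32 (adjusted p = 2.77e-10) without it. At 7dpa the genotypes differed by -0.95 (adjusted p = 0.0154), though the groups overlapped through replicate 1.

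Mitochondrial and peroxisomal prdx5 (ENSDARG00000055064) had 131, 132 and 125 CPM in WT sham and 134, 100.2 and 97.9 in WT 7dpa. In mutants prdx5 had 73.2, 75.5 and 79.2 CPM after sham surgery and 93.2, 92.97 and 93.1 at 7dpa. Mutant sham hearts were lowest and rose at 7dpa without overlap (0.29, adjusted p = 0.0463). They lay 1.704-fold below wild-type sham hearts (-0.77 ± 0.10 SE, adjusted p = 3.58e-05). The wild-type response was -0.22 (adjusted p = 0.0671), with WT 7dpa replicate 1 at the sham level, and -0.37 (adjusted p = 2.61e-06) without it. The low-count prdx1 (ENSDARG00000058734) had counts of 13, 11 and 10 in WT sham, 23, 78 and 74 in WT 7dpa, 7, 18 and 26 in mvp sham and 28, 38 and 28 in mvp 7dpa. It rose by 1.88 (adjusted p = 0.00488) in wild-type, and by 2.28 (adjusted p = 8.56e-07) without WT 7dpa replicate 1. The mutant response was 0.60 (adjusted p = 0.391). Leaving out that replicate took its interaction from -1.28 (adjusted p = 0.171) to -1.69 (adjusted p = 0.00401) and its 7dpa difference from -0.72 (adjusted p = 0.264) to -1.12 (adjusted p = 0.00161). SRXN1 (ENSDARG00000079160), sulfiredoxin, which restores overoxidised peroxiredoxins, had counts of 19, 24 and 28 in WT sham, 17, 20 and 19 in WT 7dpa, 10, 17 and 8 in mvp sham and 15, 14 and 10 in mvp 7dpa. In CPM its WT sham libraries lay above all others, with -0.82 (adjusted p = 0.0364) for the wild-type response and -1.01 (adjusted p = 0.0207) for mutant against wild-type sham. The first lost its call without WT 7dpa replicate 1 (-0.74, adjusted p = 0.0585), and the interaction was 0.68 (adjusted p = 0.285). PRDX4, of the endoplasmic reticulum, rose in both genotypes (0.46 and 0.45). Neither PRDX1 (ENSDARG00000025350) nor mitochondrial PRDX3 was called in any comparison with all libraries. PRDX3 was called lower in mutants without WT 7dpa replicate 1 (-0.19, adjusted p = 0.0168).

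Catalase, superoxide dismutases and glutaredoxins had log2 fold changes under 1 in size in every comparison. CAT (ENSDARG00000104702), which splits hydrogen peroxide, had 125, 133 and 118 CPM in WT sham and 111, 92.8 and 100.4 in WT 7dpa. In mutants CAT had 104, 101 and 106 CPM after sham surgery and 95.5, 91.9 and 96.3 at 7dpa. WT sham lay above the other groups, with -0.31 (adjusted p = 0.00253) for the wild-type response (0.083 under library totals), -0.28 (adjusted p = 0.00636) between the sham groups and -0.13 (adjusted p = 0.209) for the mutant response. Its interaction was 0.18 (adjusted p = 0.198), or 0.23 (adjusted p = 0.0206) without WT 7dpa replicate 1. SOD1, the cytosolic superoxide dismutase, was called higher in mutant sham hearts (0.38). SOD2, the mitochondrial one, was called lower there (-0.26) and in WT 7dpa (-0.27, but 0.12 under library totals), with overlapping groups in both. Glutaredoxins are small glutathione-dependent reductases. GLRX (ENSDARG00000028106), the cytosolic one, had 20.4, 21.3 and 16.4 CPM in WT sham and 34.4, 28.8 and 28.7 in WT 7dpa. In mutants GLRX had 17.3, 15.5 and 16.5 CPM after sham surgery and 23.4, 22.3 and 24.8 at 7dpa. It rose in both genotypes (0.66, adjusted p = 1.68e-04 and 0.52, adjusted p = 0.00374) and was lower in mutants at 7dpa (-0.38, adjusted p = 0.0231), with an interaction of -0.14 (adjusted p = 0.503). Mitochondrial glrx2 fell in both (-0.75 and -0.32, interaction 0.43, adjusted p = 0.0395), and so did GLRX3 (-0.36, or 0.044 under library totals, and -0.37).

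Glutathione S-transferases, which couple glutathione to electrophiles, included members of both directions: 3 of 16 were called higher and 7 lower in wild-type, and 1 higher and 5 lower in mutants (medians -0.39 and -0.0059). The counts were 3 higher and 10 lower in wild-type and 3 higher and 5 lower in mutants without WT 7dpa replicate 1. Among all tested genes 31.6% were called higher and 27.8% lower in wild-type, and 12.9% and 13.4% in mutants. Without that replicate these shares were 35.2% and 31.9%, and 20.8% and 20.4%. The counts of close paralogues may be split or exchanged by multi-mapping reads, whose treatment is not given in the sources used here, so the values of single gsta, gstm, gstt and gstp genes are uncertain to that extent. The alpha-class gsta.1 (ENSDARG00000090228) had 12.7, 12.2 and 10.9 CPM in WT sham and 5.52, 5.24 and 5.19 in WT 7dpa. In mutants gsta.1 had 8.77, 8.03 and 8.97 CPM after sham surgery and 6.396, 6.56 and 6.79 at 7dpa. All 4 groups were apart, in the order WT sham, mvp sham, mvp 7dpa and WT 7dpa from high to low. It was lower at 7dpa by a log2 fold change of -1.16 ± 0.10 SE (adjusted p = 7.54e-07) in wild-type and -0.38 ± 0.10 SE (adjusted p = 0.0142) in mutants. The interaction was 0.78 (adjusted p = 0.00122), with a sham difference of -0.47 (adjusted p = 0.00168). Its neighbour in name gsta.2 (ENSDARG00000039832) had counts of 41, 38 and 24 in WT sham, 2, 2 and 9 in WT 7dpa, 23, 25 and 17 in mvp sham and 8, 7 and 10 in mvp 7dpa. Both 7dpa groups lay below both sham groups (-3.45, adjusted p = 2.00e-05 in wild-type and -1.66, adjusted p = 0.00952 in mutants). Most of the 7 libraries at 10 or more counts of gsta.2 were sham, so its fall is not independent of the filter. The interaction of 1.79 (adjusted p = 0.0412) lost its call without WT 7dpa replicate 1 (1.42, adjusted p = 0.0632). The rho-class gstr, a class found in fish, fell in both genotypes without overlap (-0.72, adjusted p = 9.85e-07 and -0.47, adjusted p = 1.91e-04), with an interaction of 0.25 (adjusted p = 0.0504), or 0.25 (adjusted p = 0.00903) without WT 7dpa replicate 1.

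Theta-class gstt2 (ENSDARG00000095464) was the gene with opposite calls when all libraries were used. It had 3.65, 3.602 and 3.295 CPM in WT sham and 5.098, 5.88 and 7.098 in WT 7dpa. In mutants gstt2 had 8.56, 10.4 and 10.7 CPM after sham surgery and 6.09, 5.74 and 6.54 at 7dpa. WT sham was lowest and mvp sham highest, and the 7dpa groups overlapped between them. It rose by 0.78 ± 0.15 SE (adjusted p = 5.77e-04) in wild-type, fell in mutants (-0.69 ± 0.14 SE, adjusted p = 0.00294). It was 2.804-fold higher in mutant sham hearts (1.49, adjusted p = 3.08e-06), with an interaction of -1.47 ± 0.20 SE (adjusted p = 1.38e-04). The other theta genes differed between sham groups in the opposite direction. Levels of gstt1b (ENSDARG00000017388) were 15.04, 17.2 and 12.5 CPM in WT sham and 12.6, 9.19 and 9.899 in WT 7dpa. In mutants gstt1b had 7.69, 8.69 and 9.25 CPM after sham surgery and 10.4, 9.74 and 10.999 at 7dpa. It had a sham difference of -0.80 (adjusted p = 4.94e-04) and an interaction of 0.77 (adjusted p = 0.0101). Those of gstt1a (ENSDARG00000042428) were 2.36, 2.37 and 2.01 CPM in WT sham and 2.48, 1.24 and 1.11 in WT 7dpa. In mutants gstt1a had 0.872, 0.9598 and 1.203 CPM after sham surgery and 1.899, 1.28 and 0.8995 at 7dpa. The sham difference was -1.14 (adjusted p = 0.0143). Its wild-type response of -0.48 (adjusted p = 0.21) was -0.93 (adjusted p = 0.00343) without WT 7dpa replicate 1, which lay above the WT sham libraries.

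The symbol GSTM3, of the mu class, names 3 genes. GSTM3 (ENSDARG00000088116) rose in both genotypes, with 33.9, 40.5 and 31.9 CPM in WT sham and 161, 115 and 118 in WT 7dpa. In mutants GSTM3 had 51.3, 58.3 and 58.3 CPM after sham surgery and 165, 166 and 165 at 7dpa. Sham and 7dpa groups did not overlap. The log2 fold change was 1.89 ± 0.13 SE (adjusted p = 6.23e-08) in wild-type and 1.56 ± 0.12 SE (adjusted p = 2.12e-06) in mutants, with 0.66 (adjusted p = 7.02e-04) between the sham groups. GSTM3 (ENSDARG00000029473) rose by 1.04 (adjusted p = 1.85e-04) in wild-type, with WT 7dpa at 18.3, 31.6 and 32.1 CPM, replicate 1 first, and had an interaction of -0.78 (adjusted p = 0.0235), or -1.02 (adjusted p = 6.64e-08) without that replicate. GSTM3 (ENSDARG00000042533) had 84.2, 88.8 and 77.6 CPM in WT sham and 109.7, 81.5 and 83.7 in WT 7dpa. In mutants GSTM3 had 95.4, 95.9 and 98.98 CPM after sham surgery and 115, 112 and 116 at 7dpa. For this gene mvp 7dpa differed from WT 7dpa by 0.32 (adjusted p = 0.0354).

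Omega-class gsto2 (ENSDARG00000033285) had the highest mutant-to-wild-type difference at 7dpa of the called genes whose groups did not overlap, with 37.9, 42.3 and 38.1 CPM in WT sham and 37.3, 25.9 and 29.7 in WT 7dpa. In mutants gsto2 had 54.8, 52.8 and 52.5 CPM after sham surgery and 52.3, 47.8 and 58.6 at 7dpa. Mutant hearts held 1.71-fold more at 7dpa (0.77 ± 0.12 SE, adjusted p = 6.29e-04) and 1.35-fold more after sham surgery (0.44, adjusted p = 0.007). The wild-type response of -0.35 (adjusted p = 0.02) was 0.038 under library totals. The pi-class gstp1.2 was lower in mutant sham hearts (435, 439.9 and 449 CPM against 626, 686 and 601 in WT sham, -0.53, adjusted p = 0.00253). Its WT 7dpa libraries stood at 618, 427 and 427 CPM, the first of them at the level of WT sham. The wild-type response of -0.38 (adjusted p = 0.0155) was 0.0054 under library totals. Kappa-class gstk1 fell in both genotypes (-0.45 and -0.33). Zeta-class GSTZ1, of tyrosine breakdown, was lower in mutant sham hearts (-0.38), while gsto1, gstk4 and GSTCD were not called in any comparison with all libraries. The wild-type response of gstk4 went from -0.39 (adjusted p = 0.511) to -1.32 (adjusted p = 0.00211) without WT 7dpa replicate 1.

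**Figure D3:**
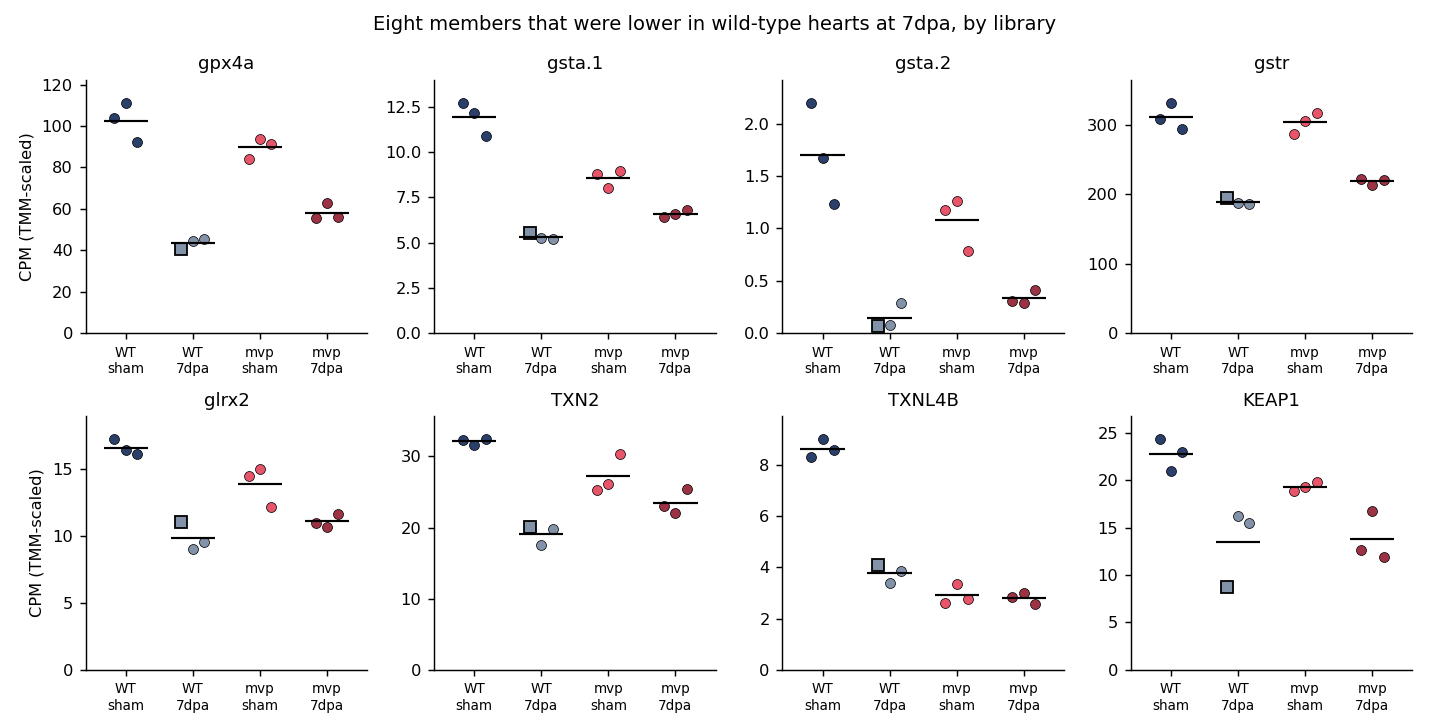
CPM in each library (points, replicates 1 to 3 from left to right) and group mean (line) for gpx4a, gsta.1, gsta.2, gstr, glrx2, TXN2, TXNL4B and KEAP1, on linear axes that start at 0, with WT 7dpa replicate 1 as a square. In every panel the WT 7dpa libraries lay below the WT sham libraries, while for TXNL4B both mutant groups also lay below WT 7dpa.

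The 10 thioredoxin-domain proteins share a fold rather than a task, and 4 were higher and 3 lower in wild-type at 7dpa, beside 31.6% and 27.8% of all tested genes. TXNL4B (ENSDARG00000058962), related to the spliceosomal protein Dim1, had 8.32, 9.005 and 8.599 CPM in WT sham and 4.09, 3.398 and 3.85 in WT 7dpa. In mutants TXNL4B had 2.62, 3.33 and 2.78 CPM after sham surgery and 2.83, 3.01 and 2.58 at 7dpa. It fell 2.28-fold in wild-type (-1.19 ± 0.13 SE, adjusted p = 6.35e-06). Mutants were already low after sham surgery (-1.57 ± 0.14 SE, adjusted p = 9.85e-07) and gave -0.051 (adjusted p = 0.833) at 7dpa. The interaction was 1.14 ± 0.20 SE (adjusted p = 7.11e-04). Its difference between the genotypes at 7dpa (-0.43, adjusted p = 0.0448) was not called without WT 7dpa replicate 1 (-0.40, adjusted p = 0.0502). TXNDC5 (ENSDARG00000009342), an endoplasmic reticulum disulphide isomerase known from mouse heart fibroblasts, rose in both genotypes, with 30.1, 25.3 and 28.2 CPM in WT sham and 51.7, 41.1 and 43.5 in WT 7dpa. In mutants TXNDC5 had 32.3, 31.8 and 30.7 CPM after sham surgery and 45.8, 40.9 and 47.8 at 7dpa. The log2 fold changes were 0.71 (adjusted p = 4.15e-05) and 0.51 (adjusted p = 0.00202), with an interaction of -0.20 (adjusted p = 0.275). TXNDC9 (ENSDARG00000069853), which in mammals binds the chaperonin that folds actin and tubulin, had 54.4, 58.5 and 51.03 CPM in WT sham and 46.1, 35.1 and 38.8 in WT 7dpa. In mutants TXNDC9 had 47.95, 48.9 and 48.7 CPM after sham surgery and 50.003, 50.8 and 55.1 at 7dpa. It fell in wild-type (-0.45, adjusted p = 9.87e-04), gave 0.10 (adjusted p = 0.466) in mutants, and had an interaction of 0.55 (adjusted p = 0.00596). TXNDC17 rose in both genotypes (0.54 and 0.45), and TXNL1 was called lower in both (-0.31, or 0.087 under library totals, and -0.36). The endoplasmic reticulum protein TXNDC12 rose in wild-type (0.61), with -0.039 in mutants and an interaction of -0.65 (adjusted p = 1.68e-04).

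Genes around these enzymes were described from 5 lists. Of 12 tested oxidases that make superoxide or hydrogen peroxide, 9 were higher in wild-type at 7dpa and the other 3 were not called (median log2 fold change 2.001, beside 0.0078 over all genes), and 4 were higher and 3 lower in mutants (0.52, beside 0.018). Among all tested genes 31.6% were called higher in wild-type, and 12.9% higher and 13.4% lower in mutants. Without WT 7dpa replicate 1, 10 of 13 tested were higher in wild-type (1.46, beside 35.2% of all genes called higher), and in mutants 6 were higher and 5 lower (beside 41.2% of all genes called). Higher in mutant sham hearts were 4 of 12 with all libraries and 10 of 13 without that replicate (beside 25.3% and 29.6% of all genes). The interaction was more negative for 8 of 12 and 11 of 13 (beside 19.9% and 28.0%). Subunits of the phagocyte NADPH oxidase were among those that rose. cybb, its catalytic subunit, had 4.89, 4.66 and 5.2005 CPM in WT sham and 13.5, 69.2 and 65.9 in WT 7dpa. In mutants cybb had 6.87, 7.78 and 8.37 CPM after sham surgery and 22.4, 20.96 and 19.2 at 7dpa. WT sham, mvp sham and mvp 7dpa rose in that order without overlap, and WT 7dpa replicate 1 lay between mvp sham and mvp 7dpa while replicates 2 and 3 lay above every other library. It rose by 3.33 in wild-type (adjusted p = 3.83e-05) and 1.44 in mutants (adjusted p = 0.0254), with an interaction of -1.89 (adjusted p = 0.0302). Leaving out WT 7dpa replicate 1, the wild-type response of cybb was 3.79 and its interaction -2.36. cyba, NCF1, NCF4 and rac2 rose in wild-type by 2.94, 3.31, 4.08 and 3.34, or by 3.41, 3.82, 4.55 and 3.73 without WT 7dpa replicate 1, and for each of them WT 7dpa replicate 1 lay below every mvp 7dpa library. The summed macrophage markers had the same order of group ranges (222 to 244, 509 to 545, 859 to 904 and 923 to 1459 CPM in WT sham, mvp sham, mvp 7dpa and WT 7dpa), with WT 7dpa replicate 1 lowest of its group but above the mvp 7dpa libraries. The part of macrophage number in these values was not tested.

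**Figure D4:**
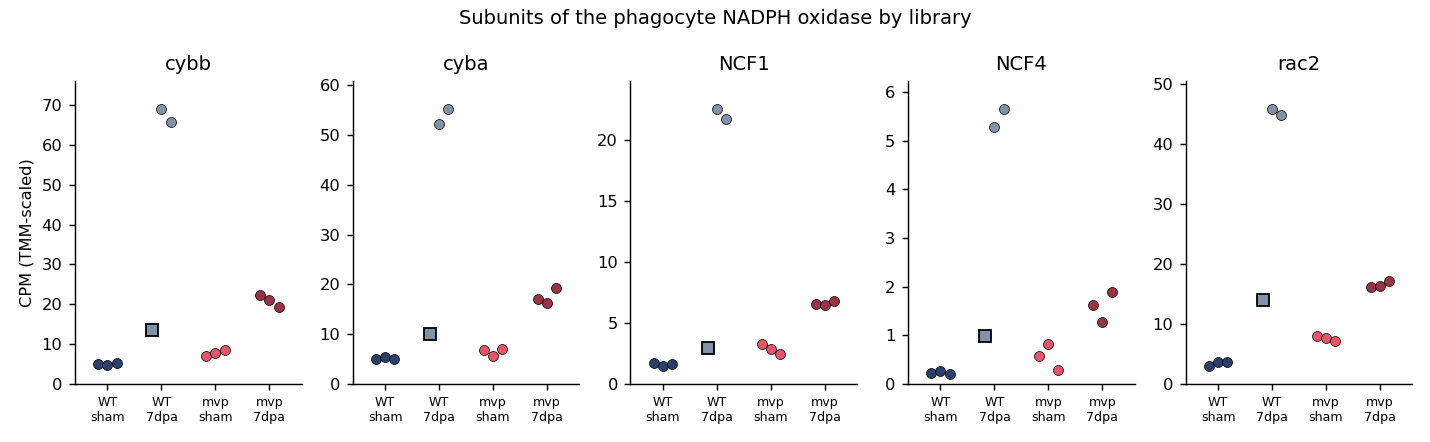
CPM in each library (points, replicates 1 to 3 from left to right) for cybb, cyba, NCF1, NCF4 and rac2, subunits of the phagocyte NADPH oxidase, on linear axes that start at 0, with WT 7dpa replicate 1 as a square. WT 7dpa replicates 2 and 3 were the highest libraries in every panel and the square lay below the 3 mvp 7dpa libraries.

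Of 19 tested genes of glutathione supply and NADPH, 8 were higher and 4 lower in wild-type at 7dpa, 2 higher and 4 lower in mutants, and 10 higher and 3 lower in mutant sham hearts. Of 20 tested without WT 7dpa replicate 1 these were 10 higher and 5 lower, 5 higher and 5 lower, and 10 higher and 6 lower. Among all tested genes 31.6% were higher and 27.8% lower in wild-type, 12.9% and 13.4% in mutants, and 25.3% and 24.2% in mutant sham hearts. Without that replicate these shares were 35.2% and 31.9%, 20.8% and 20.4%, and 29.6% and 29.6%. PGLS, of the pentose phosphate pathway that makes NADPH, had 4.19, 4.92 and 4.58 CPM in WT sham and 8.28, 13.7 and 13.1 in WT 7dpa. In mutants PGLS had 16.4, 18.6 and 18.8 CPM after sham surgery and 16.2, 19.02 and 15.9 at 7dpa. WT sham was lowest and the mutant groups overlapped, with 1.35 in wild-type, -0.076 in mutants and 1.97 between the sham groups (adjusted p = 1.03e-06), and an interaction of -1.43 (adjusted p = 5.10e-04). Other enzymes of that pathway were PGD and TALDO1, which rose in wild-type (1.42 and 0.60), and TKT, which fell (-1.67). Their interactions were -1.12, -0.74 and 1.93. The gene CTH (ENSDARG00000032206), of cystathionine gamma-lyase, which makes cysteine for glutathione, had 6.82, 5.53 and 5.25 CPM in WT sham and 35.5, 13.5 and 13.7 in WT 7dpa. In mutants CTH had 35.9, 35.8 and 35.7 CPM after sham surgery and 5.23, 5.28 and 4.91 at 7dpa. It was low in WT sham and mvp 7dpa and high in mvp sham, and WT 7dpa replicate 1 matched mvp sham more closely than its own group. The log2 fold changes were 1.83 in wild-type and -2.798 in mutants, with an interaction of -4.63 (adjusted p = 4.91e-06), and CTH had 1.23 in wild-type and an interaction of -4.03 without that replicate. Upstream of it, cbsb, a cystathionine beta-synthase gene, rose in both genotypes (3.37 and 1.61).

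Of 18 tested partners, repressors and other targets of Nrf2, 4 were higher and 5 lower in wild-type at 7dpa, 3 higher and 1 lower in mutants, and 6 higher and 5 lower in mutant sham hearts. These were 5 higher and 7 lower, 4 higher and 2 lower, and 7 higher and 7 lower without WT 7dpa replicate 1. Among all tested genes 31.6% were higher and 27.8% lower in wild-type, 12.9% and 13.4% in mutants, and 25.3% and 24.2% in mutant sham hearts. Without that replicate these shares were 35.2% and 31.9%, 20.8% and 20.4%, and 29.6% and 29.6%. The same shares stand beside the further lists below. HMOX1, the haem-degrading oxygenase, had 21.3, 24.1 and 21.1 CPM in WT sham and 51.9, 54.1 and 59.5 in WT 7dpa. In mutants HMOX1 had 36.8, 34.3 and 36.3 CPM after sham surgery and 43.5, 39.4 and 45.1 at 7dpa. Its values were 1.31 in wild-type (adjusted p = 3.73e-08), 0.25 in mutants and 0.69 between the sham groups, with an interaction of -1.06 (adjusted p = 1.74e-05). maff, a small Maf partner of Nrf2, had 7.79, 8.302 and 7.16 CPM in WT sham and 22.7, 23.5 and 26.04 in WT 7dpa. In mutants maff had 24.7, 25.6 and 25.6 CPM after sham surgery and 24.8, 24.7 and 26.7 at 7dpa. WT sham stood low and the other 3 groups overlapped, with 1.63 in wild-type, 1.71 between the sham groups and 0.0057 in mutants, and an interaction of -1.63 (adjusted p = 4.34e-07). Of 15 tested other antioxidant enzymes, 3 were higher and 6 lower in wild-type and 1 higher and 3 lower in mutants, or 3 higher and 10 lower and 2 higher and 5 lower without WT 7dpa replicate 1. Of 8 tested genes of selenoprotein synthesis, which serve gpx and txnrd enzymes, 1 was higher and 4 were lower in wild-type, and in mutants 1 was lower and the other 7 were not called. Without that replicate these were 1 higher and 2 lower in wild-type and 2 higher and 2 lower in mutants.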

How the data were processed

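The deposited files hold 1 table of read counts per gene for each of the 12 libraries. Per the labels and the study's methods, the authors made them with the NEBNext Single Cell/Low Input kit, HISAT2 2.1.0 on GRCz11 and featureCounts 1.6.0 with Ensembl annotation, whose release, and whether strand and multi-mapping reads were used, are not given in the sources used here. RNA came from several hearts per genotype, but nothing says how hearts were divided among libraries, so p-values measure the spread between these libraries, which may be technical.

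Symbols were taken from the gene name table, which named 29201 of 32520 gene IDs. Counts were tested with edgeR 4.0.16 (R 4.3.3, limma 3.58.1) by a quasi-likelihood F-test in a model with a mean per group over all 12 libraries, after TMM scaling and filterByExpr, and p-values were adjusted by Benjamini-Hochberg over 16604 genes. A gene was called at an adjusted p under 0.05. Standard errors were derived from the test, as the absolute log2 fold change divided by the square root of the F statistic. No 2 libraries agreed within counting noise. The steps were tested on simulated counts. Alternatives were DESeq2 1.42.0, limma voom, other scalings and filters, fewer samples, and a minimum fold. The genes named in full were those of set roles (Keap1, Nrf2, CAT, GCLC, GCLM, GSR, SRXN1 and NQO1) and up to 5 called genes with the highest and 5 with the lowest fold change per comparison whose groups did not overlap (overlap was allowed for the interaction), 33 in all. Other genes are named by role with fewer values. Only some genes of the 5 surrounding lists are named, and they were picked after their values were seen. The other tested genes of those lists enter by count alone, and 1 gene of the lists is withheld by name. The members, roles, marker lists and surrounding lists were chosen with earlier results of these data known. No sequences or promoters were used here.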

Additional observations from a re-analysis of the deposited data

Results flagged for a closer look

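For 22 of the 64 genes the response to resection differed between mutants and wild-type by the interaction term at an adjusted p under 0.05 (edgeR), beside 35.0% of all tested genes. In 13 genes the mutant response was the more negative, with log2 differences of -2.24 for gpx1b, -2.02 for txnb, -1.47 for gstt2, -0.99 for prdx6, -0.86 for gpx1a, -0.79 for GCLM, -0.78 for GSTM3 (ENSDARG00000029473), -0.73 for NQO1, -0.65 for TXNDC12, -0.59 for GCLC, -0.44 for TXNDC15, -0.30 for TXNIP (ENSDARG00000036107) and -0.27 for GPX4.

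In the other 9 genes the mutant response was the more positive, with log2 differences of 1.79 for gsta.2, 1.14 for TXNL4B, 0.78 for gsta.1, 0.77 for gstt1b, 0.61 for gpx4a, 0.55 for TXNDC9, 0.54 for TXN2, 0.52 for prdx5 and 0.43 for glrx2. Of the 22, gsta.2 lost its call without WT 7dpa replicate 1 (1.42, adjusted p = 0.0632), and the others kept theirs.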

How the results depend on the processing

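The numbers of members called in the wild-type response (43), the mutant response (24), between the sham groups (32), between the genotypes at 7dpa (13) and for the interaction (22) stayed within 1.5 times these values under DESeq2 size factors, library totals, the DESeq2 Wald test, filters of 10 counts in 3 libraries or in every library, and no filter. With a further minimum of 1 on the size of the log2 fold change they were 14, 5, 7, 0 and 5, and for the 0 the tools edgeR, DESeq2 and voom each had 2 members past that fold, of which 2, 1 and 1 had an unadjusted p under 0.05. Fitting the groups compared alone gave 35 of 62 tested members for the wild-type response, beside 50.5% of all genes. It gave 38 of 63 for the mutant response (beside 45.5%) and 41 of 61 between the sham groups (beside 61.5%). Between the genotypes at 7dpa it gave 5 of 61 (beside 8.76%), and voom with group weights gave 8 (beside 12.5%). Fits of the groups compared alone were not run for the interaction, which needs all groups. Similar numbers did not mean the same genes. Under library totals 30 of the 43, 17 of the 24, 30 of the 32, 11 of the 13 and 20 of the 22 calls were kept in the same direction.

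Leaving out 1 library at a time gave 36 to 48 calls for the wild-type response, 19 to 35 for the mutant response, 24 to 43 between the sham groups, 6 to 19 between the genotypes at 7dpa and 16 to 36 for the interaction, the highest of each without WT 7dpa replicate 1. Shares of all tested genes in the same order ranged from 52.2% to 67.0%, 17.9% to 41.2%, 41.7% to 59.2%, 11.2% to 34.9% and 28.0% to 49.9%. The sign of the 7dpa difference in NFE2L2 reversed without that replicate, over a leave-one-out range of -0.22 to 0.17. Library totals reversed the wild-type responses of keap1a (0.15), CAT (0.083) and gsto2 (0.038) among the genes named in full. With the replicate number as a block the counts were 43, 24, 30, 11 and 21, beside 58.2%, 25.0%, 48.5%, 17.8% and 33.3% of all tested genes. To look for pairing, the log2 CPM of each gene was taken as a deviation from its group mean. Between same-numbered libraries of different groups, the 18 correlations of these deviations ranged from -0.049 to 0.060, so no pairing by number was seen. The causes of these changes were not tested, and a search of promoters for the antioxidant response element was not run.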

Other observations

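Some genes of the surrounding lists had larger changes than most of the 64. mtbl, a metallothionein gene, had 0.537, 0.835 and 0.721 CPM in WT sham, 2.23, 1.64 and 2.32 in WT 7dpa, 3.18, 3.33 and 3.05 in mvp sham and 2.33, 2.43 and 3.56 in mvp 7dpa, so that WT sham was low, with 1.55 in wild-type (adjusted p = 1.51e-04), 2.17 between the sham groups and -0.20 in mutants. sesn2, of the stress-induced sestrins, rose in wild-type (1.41) and was higher in mutant sham hearts (1.42), with 0.47 in mutants and an interaction of -0.94 (adjusted p = 0.142), or -1.21 and then called without WT 7dpa replicate 1, whereas SESN1 fell in both genotypes (-1.07 and -0.34). MGST3, a microsomal glutathione S-transferase, fell in both (-1.67, or -2.07 without that replicate, and -1.05). SEPSECS, which makes the selenocysteine of glutathione peroxidases and thioredoxin reductases, had 9.399, 11.3 and 11.1 CPM in WT sham, 3.67, 3.76 and 3.63 in WT 7dpa, 3.898, 2.98 and 3.42 in mvp sham and 3.06, 2.89 and 3.03 in mvp 7dpa, with -1.53 in wild-type, -1.63 between the sham groups and -0.20 in mutants. These genes were chosen after their values were seen.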
